A study of Mus musculus with 9 samples.

Results

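The genes described here encode the pore and auxiliary subunits of potassium, calcium, sodium and chloride channels, as measured by RNA-seq in 3T3-L1 cells. They were taken by symbol (Kcn, Cacna, Cacnb, Cacng, Cacna2d, Scn followed by a digit and Clcn followed by a digit), which gave 110 of the 19094 genes listed in at least 1 sample. Of these, 69 belonged to the potassium group, 22 to the calcium group, 12 to the sodium group and 7 to the chloride group. The mean FPKM of a day reached 1 for 25 of the 110 genes (8 potassium, 9 calcium, 2 sodium and 6 chloride), and 24 of these 25 are described by name. FPKM is a fragment count scaled to the length of the transcript and to the depth of the library, so that levels can be compared between genes of different length.

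3T3-L1 is a clonal mouse line of fibroblast-like preadipocytes that can be induced to store lipid, and no allele or strain is given in the labels. Day 0 cells (3 samples) were confluent preadipocytes before any treatment. Day 4 cells (3 samples) had received dexamethasone, IBMX and insulin for 2 days and insulin alone for 2 more days. Day 8 cells (3 samples) had been kept with insulin for another 4 days. The study's methods state that cells of a stage were pooled and that RNA was mixed for the samples, so the replicates may be technical, and p-values then measure only the spread between these samples. Between 18216114 and 20452144 expected counts were assigned to genes in each sample, and the 110 channel genes together took from 0.0841% to 0.102% of them.

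Ion channels are membrane proteins with a pore subunit that lets an ion pass along its gradient and, in many families, auxiliary subunits that move the pore to the membrane or change its gating. Potassium channels set the resting membrane potential, voltage-gated calcium and sodium channels carry inward current, and the CLC family holds both chloride channels of the cell surface and chloride/proton exchangers of endosomes and lysosomes. In adipocytes, membrane potential and calcium entry have been linked to insulin action and to the handling of lipid.

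The label of the cells was compared with lists of marker genes. All 10 adipocyte markers were tested, and all 10 were higher at day 4 than at day 0 by more than 2-fold at an adjusted p under 0.05. Their summed FPKM came to 145.8 ± 2.82 (SD, n = 3) before induction, 7154 ± 1277 at day 4 and 9330 ± 450 by day 8, led by Lpl at day 0 (117.1) and by Fabp4 at day 4 (4052) and day 8 (4828), while Lep was not listed in any day 0 sample. The 8 preadipocyte and fibroblast markers summed to 7932 ± 178, 6159 ± 278.8 and 7697 ± 138.1, with Vim highest at day 0 and day 4 and Col1a2 at day 8. The day 0 samples carry the label adipocytes, while the adipocyte markers were lowest at that day. The extraction text in the labels also names dorsal root ganglia, so sensory neuron markers were looked at. Their sum was 26.0 ± 3.57, 6.22 ± 0.486 and 19.4 ± 0.613, of which P2rx3 made up 23.1, 5.05 and 18.2, whereas Calca, Nefh, Pou4f1 and Tac1 were not listed in any day 0 sample and Pou4f1 in no sample at all. General neuron markers summed to 1.19, 1.58 and 1.46 FPKM (Syn1 highest at day 0, Snap25 later, Elavl4 not listed), Schwann cell markers to 132, 166.7 and 168.4 (almost all Pmp22, with Fabp7 not listed), skeletal muscle markers to 4.78, 5.39 and 9.88 (Des highest, Myod1 not listed), macrophage and leukocyte markers to 7.86, 5.24 and 5.47 (Cd14 highest) and endothelial markers to 0.94, 0.343 and 0.433 (Vwf highest at day 0, Pecam1 later). The part of any of these cell types in the channel levels was not tested. In bulk RNA, fewer cells that express a gene and less RNA per cell cannot be told apart.

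Promoter sequences from RefSeq (GRCm38.p6, 300 bases around a transcription start, most of them upstream) were matched by gene ID to 19 of the 25 genes, which had 35 promoters. Of the named genes, Kcnk3, Cacna1g, Cacng4, Cacna1a and Kcnd1 were not matched. Letters of 5 motifs were searched on both strands, namely TTGCNNAA of C/EBP proteins, TGACGTCA of the cAMP response element and its core TGACG, which every full copy contains, AGAACA followed after 3 free bases by TGT for the glucocorticoid response element and the TATA letters TATAAA, and apart from this core no promoter of the matched genes held more than 1 of them. Since dexamethasone activates the glucocorticoid receptor and IBMX raises cAMP, the 3 promoters that held the glucocorticoid or the full cAMP letters are shown. All 3 belong to closely related CLC exchangers of endosomes, namely Clcn3 (chr8:60983262-60983561), Clcn4 (chr7:7299508-7299807) and Clcn5 (chrX:7319309-7319608), each on the minus strand. Each of these genes also had another promoter (chr8:60954750-60955049, chr7:7298787-7299086 and chrX:7188665-7188964) with neither the full cAMP nor the glucocorticoid letters. Which start was used in these cells was not tested. Capitals mark the cAMP letters in Clcn3, which begin at position 11 from the start, and in Clcn4, which begin at -76, and the glucocorticoid letters in Clcn5, which begin at -236 and are printed as the reverse complement.
Clcn3: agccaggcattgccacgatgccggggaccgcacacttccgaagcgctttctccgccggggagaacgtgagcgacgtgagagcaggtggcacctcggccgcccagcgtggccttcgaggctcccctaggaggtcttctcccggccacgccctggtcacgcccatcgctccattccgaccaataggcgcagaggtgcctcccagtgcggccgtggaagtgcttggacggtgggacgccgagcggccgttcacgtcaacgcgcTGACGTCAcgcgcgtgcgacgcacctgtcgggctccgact
Clcn4: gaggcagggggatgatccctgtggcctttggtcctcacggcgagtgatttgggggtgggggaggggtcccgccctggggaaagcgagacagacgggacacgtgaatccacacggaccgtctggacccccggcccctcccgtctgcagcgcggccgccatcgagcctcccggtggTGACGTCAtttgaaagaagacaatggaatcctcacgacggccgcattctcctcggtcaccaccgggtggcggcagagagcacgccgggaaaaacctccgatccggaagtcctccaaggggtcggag
Clcn5: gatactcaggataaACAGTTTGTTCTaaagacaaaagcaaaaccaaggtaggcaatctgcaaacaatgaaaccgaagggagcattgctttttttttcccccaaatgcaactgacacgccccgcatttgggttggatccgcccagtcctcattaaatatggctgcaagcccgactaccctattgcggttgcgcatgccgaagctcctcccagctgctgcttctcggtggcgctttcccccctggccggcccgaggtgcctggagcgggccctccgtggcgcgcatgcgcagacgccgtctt

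The cAMP letters stood in 2 of the 35 promoters (5.71%), in 0% of the 87 promoters of channel genes below 1 FPKM, in 1.64% of all 122 channel gene promoters and in 1.79% of all 32851 promoters of the table. For the glucocorticoid letters, found in 1 of the 35, these shares were 2.86%, 0%, 0.82% and 0.414%. The core TGACG stood in 34.3%, 16.1%, 21.3% and 20.8%. For the C/EBP letters the shares were 5.71%, 8.05%, 7.38% and 10.8%, and for the TATA letters 5.71%, 8.05%, 7.38% and 13.6%. The median G+C content of the 35 promoters was 59.7%, that of the promoters of channel genes below 1 FPKM 57.7% and that of all promoters 52.7%. A match is a run of letters and was not tested as a binding site. The levels of these 3 exchangers, which moved in 3 different ways, are given with the chloride group.

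Most channel genes were low. Of 145 genes in RefSeq whose symbols fit, 35 were listed in none of the samples. While 61.8% of all listed genes (11793) had a mean of 1 FPKM or more at some day, 22.7% of the channel genes did, and 85 stayed below it. Just inside the threshold, the highest daily mean was 1.03 FPKM for Kcnk2 and 1.15 for Kcnq1ot1, and just outside it was 0.447 for Kcnh4 and 0.433 for Cacnb4.

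At day 0 the highest means were those of the auxiliary calcium channel subunit Cacnb3 (63.3 FPKM), of Cacng7 (32.0) and of the lysosomal exchanger Clcn7 (29.6). Cacng7 is counted with the calcium group by its symbol, but is a gamma subunit of the TARP type, which accompanies AMPA receptors. At day 4 Cacnb3 (46.2) was followed by the calcium channel pore subunit Cacna1g (31.3), Cacng7 (27.1) and Clcn7 (22.6). At day 8 Cacnb3 (43.3) was followed by Kcnk3 (29.4), Cacng7 (25.8) and Cacna1g (20.5), so that pore subunits of a potassium and a calcium channel stood among the highest 4. Summed over the 110 genes, FPKM went from 230.5 ± 2.68 (SD, n = 3) at day 0 to 220.3 ± 8.77 and 204.6 ± 4.07 at the later days. The median gene was lower in FPKM as well. On log2(FPKM + 0.1), the median difference of all tested genes from day 0 was -0.05 at day 4 and -0.12 at day 8. The potassium sum was 29.9 ± 2.12, 42.2 ± 1.36 and 47.7 ± 1.68, and its samples did not overlap between days. The increase was that of the leak channel gene Kcnk3. The other 68 potassium genes summed to 25.4 ± 1.17, 24.0 ± 0.389 and 18.2 ± 0.485, and their day 8 samples lay below the earlier days. Between day 0 and day 4 the gap was narrow, with 24.5 in the lowest day 0 sample and 24.4 in the highest day 4 sample. These sums lack the TMM factors of the fit, which adjust depth for library composition (1.04 to 1.05, 0.990 to 1.00 and 0.954 to 0.974 by day). Whether the early difference outlasts that adjustment was not tested. The chloride sum was 65.6 ± 2.80, 50.5 ± 3.49 and 44.6 ± 0.835, without overlap between days. The calcium sum was 130.3 ± 2.91, 122.4 ± 6.18 and 106.8 ± 4.92, and the sodium sum 4.69 ± 0.321, 5.18 ± 0.487 and 5.49 ± 0.406, and in both of these the samples of day 0 and day 4 overlapped.

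**Figure D1:**
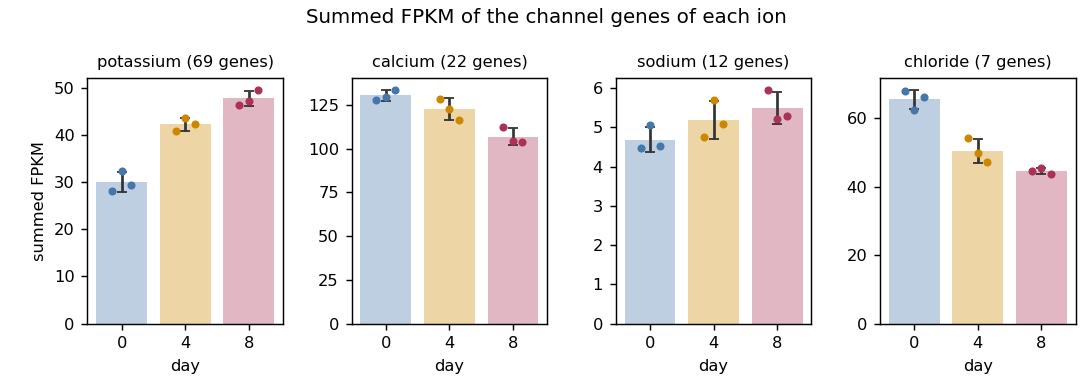
Summed FPKM of the channel genes of each ion (y axis, each panel from 0 with its own scale) at day 0, 4 and 8 (x axis). Bars are means, points are the 3 samples of a day and error bars are SD. Potassium sums were 29.9, 42.2 and 47.7 and chloride sums 65.6, 50.5 and 44.6. Without Kcnk3 the potassium sums were 25.4, 24.0 and 18.2.

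Differences between days were tested for all 13154 genes with enough counts by edgeR's quasi-likelihood F-test, with p-values adjusted over all of them by the Benjamini-Hochberg method. In the text, rose and fell mean an adjusted p under 0.05, and called means in addition a difference of more than 2-fold. Values after ± beside a log2 fold change are standard errors. Of the 110 channel genes, 39 had enough counts to be tested, which are the 25 with a mean of 1 FPKM or more and 14 below 1 FPKM. A gene can pass the count filter through the day at which it is high, so counts over the tested genes are a description. Among the named genes at 1 FPKM or more, Kcnk2, Kcnn1, Kcnma1, Kcnq1ot1, Cacna1a, Cacna1c, Cacng4 and Scn2a1 had a mean under 1 FPKM at some day and entered through their higher days, so that their differences between such days, given below with the values of the fit, are a description too. The 3 comparisons share samples and are not independent of each other.

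In the early phase (day 4 against day 0), 11 of the 39 rose and 14 fell. Over all tested genes 35.5% rose and 33.7% fell. Called were 7 higher and 4 lower, where 9.77% of all tested genes were called higher and 7.98% lower, 17.8% in all. In the late phase (day 8 against day 4), 7 rose and 11 fell (22.5% and 22.7% of all genes), and 3 were called higher and 3 lower (4.24% and 2.81% of all genes, 7.05% in all). Over the whole process (day 8 against day 0), 13 rose and 18 fell (34.8% and 36.2%), and 8 were called higher and 3 lower (10.3% and 7.70%, 18.0% in all). The median log2 fold change of the 39 was -0.08, -0.11 and -0.20 in the 3 comparisons, and that of all genes was 0.02, -0.01 and -0.02. Among the 25 genes at 1 FPKM or more, 4 were called higher and 3 lower in the early phase, 2 higher and 0 lower in the late phase, and 3 higher and 2 lower over the whole process. By the adjusted p alone, 7 rose and 12 fell early, 6 rose and 7 fell late, and 8 rose and 15 fell over the whole process.

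**Figure D2:**
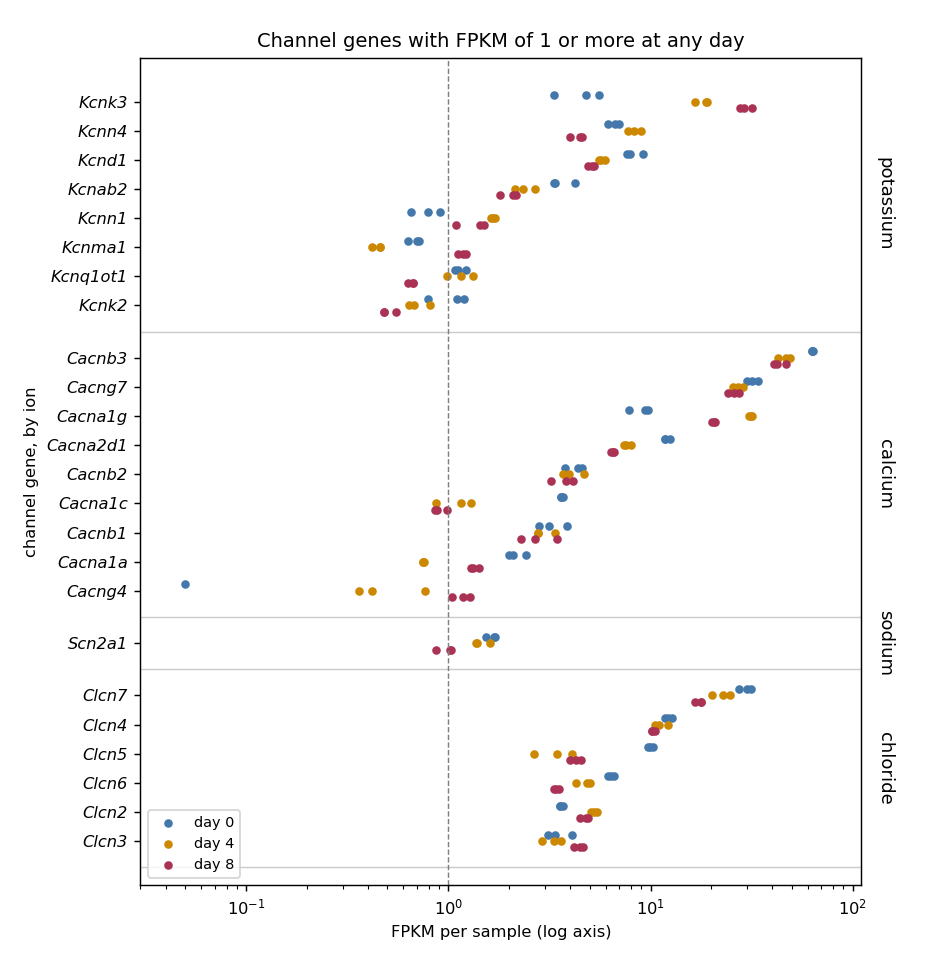
FPKM in each of the 9 samples (x axis, log scale) for 24 channel genes with a mean of 1 FPKM or more at some day (rows, by ion and level). Points are samples, coloured by day, and the dashed line marks 1 FPKM. Cacnb3 has the highest levels at every day, while Kcnk3 moves to the right from day 0 to day 8. The 2 day 0 samples in which Cacng4 was not listed cannot be drawn on this axis.

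Among potassium channels, the tandem-pore-domain leak channels carry background current at rest. Kcnk3 (gene ID 16527), which encodes the acid-sensitive leak channel TASK-1, rose in both phases. Its FPKM was 3.33, 5.57 and 4.81 in the day 0 samples, 16.6, 19.1 and 18.7 at day 4 and 27.5, 29.0 and 31.8 at day 8. Every day 4 sample was above every day 0 sample and below every day 8 sample. Kcnk3 rose by 2.06 ± 0.12 on the log2 scale in the early phase (adjusted p = 2.1e-10, edgeR) and by 0.74 ± 0.10 in the late phase (adjusted p = 1.9e-05), and over the whole process it was 2.81 ± 0.12, a 6.99-fold rise (adjusted p = 3.8e-12). Of the summed FPKM of the 54 potassium pore subunits, Kcnk3 accounted for 19.0% ± 3.59 (SD, n = 3) at day 0, for 48.5% ± 1.67 and then 66.9% ± 1.93. In the annotation, 5.76% of its exon bases overlap a transcript on the opposite strand, and whether counting used strand is not stated.

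Kcnk2, the mechanically and lipid-gated leak channel TREK-1, was low and went the other way. Its mean FPKM went from 1.03 ± 0.214 at day 0 to 0.710 ± 0.0889 and 0.503 ± 0.0404. Over the whole process it fell by 0.91 on the log2 scale (SE 0.20, adjusted p = 0.00081), and it became a call (-1.07) without day 0 replicate 3. It reached 1 FPKM at day 0 alone, so its differences from that day are a description. The early log2 fold change of -0.46 ± 0.19 (adjusted p = 0.045) missed the threshold in 8 of 17 alternatives, among them leaving out day 0 replicate 1 or 2, day 4 replicate 2 or 3 or day 8 replicate 1 or 2 (-0.62 to -0.34 over all 9 omissions). The annotation places 12.2% of its exon bases opposite another transcript. The other 8 leak channel genes had daily means of at most 0.133 FPKM.

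The calcium-activated potassium channels open when internal calcium rises, and 3 of them moved in 3 different ways. Kcnn4, the intermediate-conductance channel, was at 6.15, 6.66 and 6.99 FPKM at day 0, at 7.72, 8.99 and 8.30 at day 4 and at 4.58, 4.0 and 4.48 at day 8. It was highest at day 4 and lowest at day 8, without overlap between days. It rose by 0.40 ± 0.09 on the log2 scale in the early phase (adjusted p = 0.00085) and fell by 0.89 in the late phase (SE 0.09, adjusted p = 1.2e-06). For Kcnn1 (gene ID 84036), a small-conductance channel, FPKM was 0.91, 0.65 and 0.79 at day 0, 1.62, 1.71 and 1.66 at day 4 and 1.44, 1.5 and 1.09 at day 8. All day 4 and day 8 samples exceeded all day 0 samples. It reached 1 FPKM through the later days, and as a description its early log2 fold change was 1.15 ± 0.15 (adjusted p = 5.6e-06), its late one -0.27 ± 0.14 did not pass (adjusted p = 0.14), and the whole rise of 0.88 ± 0.16 (adjusted p = 0.00011) became a call without day 0 replicate 1 (1.01) or day 8 replicate 3 (1.02). By contrast, Kcnma1 (gene ID 16531), the large-conductance BK channel, was at 0.72, 0.70 and 0.63 FPKM at day 0, at 0.46, 0.42 and 0.46 at day 4 and at 1.11, 1.18 and 1.22 at day 8. Day 4 samples were the lowest and day 8 samples the highest. The gene fell by 0.54 on the log2 scale in the early phase (SE 0.14, adjusted p = 0.0025) and rose by 1.43 ± 0.13 in the late phase (adjusted p = 1.9e-07), with a whole change of 0.89 ± 0.12 (adjusted p = 6.7e-06), where day 8 alone brought it to 1 FPKM and the comparisons with that day are a description. Opposite another transcript lie 5.98% of its exon bases. Its beta subunits summed to at most 0.19 FPKM in any sample.

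Of 25 voltage-gated potassium pore subunits, Kcnd1, which carries a transient A-type current, was the single one above 1 FPKM and made up 90.3% ± 0.657, 84.0% ± 1.45 and 83.3% ± 1.92 of their sum at day 0, 4 and 8. Its samples were at 7.93, 9.21 and 7.68 FPKM at day 0, at 5.92, 5.68 and 5.59 at day 4 and at 5.23, 4.93 and 5.14 at day 8. The days did not overlap, and Kcnd1 fell by 0.46 on the log2 scale in the early phase (SE 0.07, adjusted p = 3.2e-05), while the late value of -0.12 ± 0.08 did not pass (adjusted p = 0.20). Kcnab2, an auxiliary beta subunit of voltage-gated channels, was at 3.33, 4.22 and 3.36 FPKM at day 0, at 2.69, 2.13 and 2.35 at day 4 and at 2.09, 2.17 and 1.81 at day 8. All day 0 samples lay above the later ones. It fell by 0.54 in the early phase (SE 0.12, adjusted p = 0.0007) and by 0.73 over the whole process (SE 0.12, adjusted p = 5e-05). Kcnq1ot1 is not a channel but a long noncoding RNA transcribed antisense within the imprinted Kcnq1 locus, and it enters by its symbol alone. Of its exon bases, 1.2% lie opposite other transcripts, Kcnq1 among them. Its mean was 1.14 ± 0.0737, 1.15 ± 0.170 and 0.657 ± 0.0231 FPKM, with a late fall of 0.76 on the log2 scale (SE 0.08, adjusted p = 1.6e-06). The early value of 0.08 ± 0.08 (adjusted p = 0.38) passed at 0.17 when day 4 replicate 2 was left out.

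Inward rectifier genes (Kcnj), which clamp the resting potential near that of potassium in muscle and glia, had 12 members in the files and no daily mean above 0.0933 FPKM. Their sum was 0.373 ± 0.132, 0.463 ± 0.0681 and 0.323 ± 0.0666. Kcnj10, the one member with enough counts to be tested, passed in no comparison. The floor of 3 counts per sample corresponded to between 0.147 and 0.165 CPM (counts scaled to depth).

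The pore-forming alpha-1 subunits of voltage-gated calcium channels changed in opposite directions. Cacna1g (gene ID 12291), the T-type channel that opens at weak depolarization, was at 9.71, 7.86 and 9.43 FPKM at day 0, at 31.8, 31.5 and 30.7 at day 4 and at 20.1, 20.7 and 20.7 at day 8. Each day formed a separate range, highest at day 4. In the early phase it rose by 1.86 ± 0.07 on the log2 scale (adjusted p = 5.4e-13), and the log2 fold change was -0.56 ± 0.06 in the late phase (adjusted p = 2.1e-06) and 1.30 ± 0.07 over the whole process (adjusted p = 4.3e-11). Cacna1c (gene ID 12288), the L-type channel of heart and smooth muscle, was at 3.68, 3.61 and 3.60 FPKM at day 0, at 1.30, 1.16 and 0.87 at day 4 and at 0.99, 0.88 and 0.86 at day 8. Both later days lay below day 0 and overlapped each other. It fell by 1.67 on the log2 scale in the early phase (SE 0.10, adjusted p = 3.7e-10) and by 1.89 over the whole process (SE 0.10, adjusted p = 1e-10), a 3.71-fold difference. The late value of -0.23 ± 0.12 (adjusted p = 0.12) passed at -0.38 without day 4 replicate 3. Cacna1a (gene ID 12286), the P/Q-type channel of nerve terminals, was at 2.42, 2.10 and 1.99 FPKM at day 0, at 0.75, 0.76 and 0.75 at day 4 and at 1.42, 1.29 and 1.32 at day 8. It was lowest at day 4, and the days did not overlap. The early fall was 1.46 on the log2 scale (SE 0.10, adjusted p = 1.8e-09), followed by a late rise of 0.89 ± 0.11 (adjusted p = 4.5e-06).

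As a share of the summed FPKM of the 10 calcium pore subunits, Cacna1g went from 59.5% ± 2.47 at day 0 to 93.8% ± 0.504 and 89.4% ± 0.712. Cacna1c went from 24.1% ± 1.71 to 3.31% ± 0.585 and 3.97% ± 0.344, and Cacna1a from 14.4% ± 1.22 to 2.25% ± 0.0516 and 5.86% ± 0.348. The other 7 pore subunit genes had daily means of at most 0.277 FPKM. These shares are of RNA, and channel protein was not measured.

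In summed FPKM the auxiliary calcium channel subunits, with the TARP genes counted among them, were more abundant than the pores. Gene by gene this did not hold, since at day 4 Cacna1g stood above all of them but Cacnb3. Among the auxiliary genes at 1 FPKM or more, Cacng4 was the one called. Cacnb3, a cytoplasmic beta subunit, was at 63.1, 63.2 and 63.7 FPKM at day 0, at 49.0, 46.7 and 42.9 at day 4 and at 46.7, 40.7 and 42.4 at day 8. Day 0 stood above the later days, which overlapped. It fell by 0.39 on the log2 scale in the early phase (SE 0.06, adjusted p = 1.5e-05), and the late value of -0.04 ± 0.06 did not pass (adjusted p = 0.58). Cacna2d1, the extracellular alpha-2-delta subunit to which gabapentin binds, was at 11.8, 12.5 and 11.8 FPKM at day 0, at 8.02, 7.38 and 7.53 at day 4 and at 6.63, 6.55 and 6.41 at day 8. It was lower at each later day without overlap. The gene fell by 0.59 in the early phase (SE 0.05, adjusted p = 2.1e-08) and by 0.77 over the whole process (SE 0.05, adjusted p = 7.7e-10), and its late value of -0.18 ± 0.05 (adjusted p = 0.0077) missed the threshold at -0.15 without day 8 replicate 3.

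Cacng7, a gamma subunit of the TARP type that accompanies AMPA receptors in the brain, was at 30.1, 31.8 and 34.1 FPKM at day 0, at 28.7, 27.0 and 25.7 at day 4 and at 27.3, 25.9 and 24.2 at day 8. The adjacent gene Cacng8 on chromosome 7 had daily means of at most 0.0467 FPKM. The difference of Cacng7 was small. Its early log2 fold change of -0.17 ± 0.07 (adjusted p = 0.045) missed the threshold in 10 of 17 alternatives, the replicate block among them. The whole one of -0.20 ± 0.07 (adjusted p = 0.022) missed it in 4. Libraries whose omission alone did so were day 0 replicates 2 and 3, day 4 replicates 2 and 3 and day 8 replicates 1 and 2 for the early value (-0.21 to -0.12 over all 9 omissions) and day 0 replicate 3 and day 8 replicates 2 and 3 for the whole one (-0.24 to -0.15). Cacnb1 (3.27 ± 0.539, 2.98 ± 0.347 and 2.81 ± 0.574 FPKM) and Cacnb2 (4.23 ± 0.405, 4.12 ± 0.516 and 3.74 ± 0.474 FPKM), both beta subunits, passed in no comparison, with log2 fold changes between -0.15 and 0.03, and 7.32% of the exon bases of Cacnb2 lie opposite other transcripts.

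Cacng4 (gene ID 54377), another TARP, came up from the detection limit. It was listed at 0.05 FPKM in 1 day 0 sample and not listed, and so taken as 0, in the other 2, and stood at 0.77, 0.36 and 0.42 at day 4 and at 1.18, 1.28 and 1.04 at day 8. The days did not overlap. Day 0 held 1 count in all 3 samples together, against 30 at day 4 and 68 at day 8, which gives depth-scaled ratios of 30.8 (95% counting interval 5.12 to 1256) and 72.0 (12.5 to 2887). Exact intervals of this kind cover counting error only. The single day 0 count lay in replicate 1, without which day 0 held no count. The late log2 fold change was 1.22 ± 0.35 (adjusted p = 0.0094 by edgeR), but the gene passed both the level of 1 FPKM and the count filter through its high day, so that this value is a description. Its neighbour on chromosome 11, Cacng1, had daily means of at most 0.08 FPKM.

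**Figure D3:**
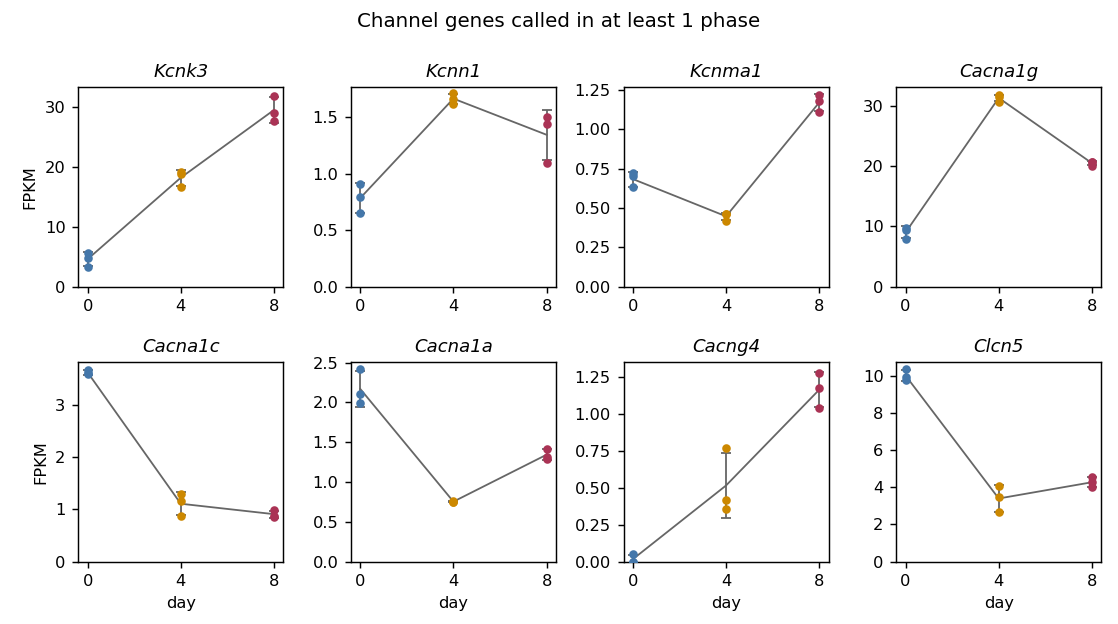
FPKM (y axis, each panel from 0 with its own scale) against day (x axis) for the 8 genes with a mean of 1 FPKM or more that were called in at least 1 phase. Points are samples, lines join the daily means and error bars are SD (n = 3). Kcnk3 and Cacng4 are higher at each later day, Cacna1g and Kcnn1 are highest at day 4, and Kcnma1, Cacna1a and Clcn5 are lowest there.

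Voltage-gated sodium channel genes had the lowest sum of the 4 groups. Scn2a1, a pore subunit of brain neurons, was at 1.53, 1.69 and 1.71 FPKM at day 0, at 1.61, 1.37 and 1.38 at day 4 and at 1.03, 1.02 and 0.87 at day 8. Day 8 lay below both earlier days, which overlapped, and the late fall was 0.53 on the log2 scale (SE 0.10, adjusted p = 0.00046). Among its 50-base stretches, 5.76% also occur in transcripts of other genes, the largest share of the channel genes named here, while the neighbouring Scn3a on chromosome 2 had daily means of at most 0.0633 FPKM. The sodium channel genes below 1 FPKM had daily means of at most 0.143.

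In the chloride group, 6 of 7 genes were above 1 FPKM. Clcn2, an inwardly rectifying channel of the cell surface, was at 3.71, 3.57 and 3.58 FPKM at day 0, at 5.06, 5.28 and 5.42 at day 4 and at 4.47, 4.82 and 4.90 at day 8. Every later sample was above day 0, and the gene rose by 0.60 ± 0.08 on the log2 scale in the early phase (adjusted p = 2.7e-06) and by 0.50 ± 0.08 over the whole process (adjusted p = 2.2e-05). Clcn1, the skeletal muscle channel, had daily means of at most 0.137 FPKM.

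The 5 exchangers summed to 61.8 ± 2.78, 45.2 ± 3.66 and 39.8 ± 0.907 FPKM, and 4 of them fell and 1 rose over the whole process (36.2% and 34.8% of all tested genes), the smallest fall, that of Clcn4, missing the threshold in 4 of 17 alternatives. Clcn7, the exchanger of lysosomes, was at 31.5, 27.5 and 29.9 FPKM at day 0, at 24.7, 22.8 and 20.2 at day 4 and at 17.8, 17.7 and 16.7 at day 8. It was lower at each later day without overlap, with a log2 fold change of -0.33 ± 0.07 in either phase (adjusted p = 0.00045 early and 0.0011 late) and of -0.66 ± 0.07 over the whole process (adjusted p = 3e-07). Clcn6, an exchanger of late endosomes, had means of 6.40 ± 0.221, 4.71 ± 0.367 and 3.43 ± 0.101 FPKM and likewise fell in both phases, by 0.37 (SE 0.07, adjusted p = 0.00016) and 0.41 (SE 0.07, adjusted p = 0.00026) on the log2 scale.

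Clcn5 (gene ID 12728), the endosomal exchanger best known from kidney tubules and shown above with the glucocorticoid letters, was at 9.94, 9.74 and 10.3 FPKM at day 0, at 4.07, 3.45 and 2.66 at day 4 and at 4.28, 4.53 and 3.99 at day 8. Both later days were below day 0 and overlapped each other. Its early fall of 1.49 on the log2 scale (SE 0.11, adjusted p = 2.6e-09) was the largest among the exchangers, and the whole fall was 1.11 (SE 0.10, adjusted p = 7.1e-08). The late rise of 0.38 ± 0.11 (adjusted p = 0.012) missed the threshold at 0.34 without day 8 replicate 2 (0.23 to 0.54 over all 9 omissions). Clcn3, shown with the cAMP letters, had means of 3.52 ± 0.509, 3.28 ± 0.367 and 4.43 ± 0.227 FPKM and rose in the late phase by 0.49 ± 0.10 on the log2 scale (adjusted p = 0.00078), with an early value of -0.01 ± 0.10 (adjusted p = 0.92). Clcn4, also with the cAMP letters, had means of 12.3 ± 0.515, 11.3 ± 0.824 and 10.3 ± 0.171 FPKM. Its whole log2 fold change was -0.17 ± 0.06 (adjusted p = 0.026), and the alternatives that missed the threshold included the omission of day 0 replicate 3 or of day 8 replicate 1 or 3 (-0.19 to -0.14 over all omissions). Its early value of -0.08 ± 0.06 (adjusted p = 0.26) passed at -0.15 without day 4 replicate 1, and 11.5% of its exon bases lie opposite another transcript. As a share of the exchangers' sum, Clcn5 was 16.2% ± 0.631, 7.46% ± 0.992 and 10.7% ± 0.443, Clcn3 5.69% ± 0.69, 7.29% ± 1.19 and 11.1% ± 0.62, and Clcn7 47.9% ± 1.08, 49.9% ± 1.36 and 43.6% ± 0.685.

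**Figure D4:**
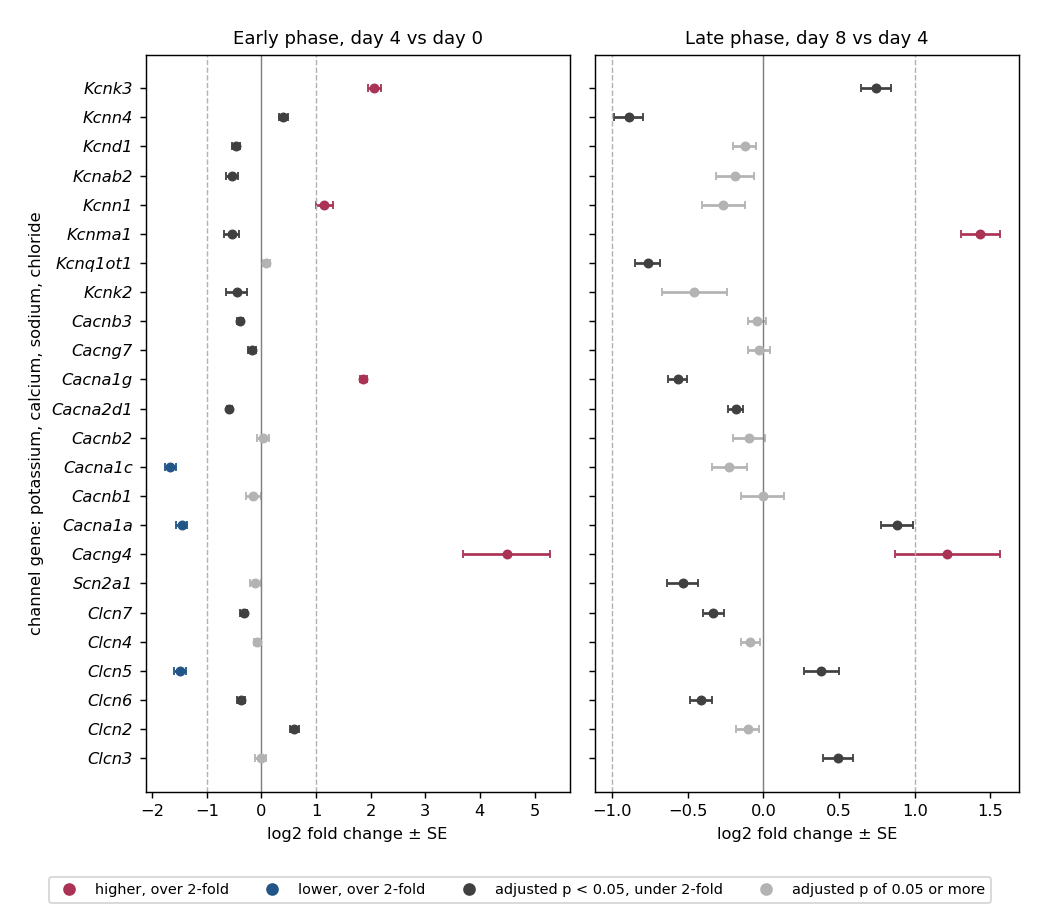
Log2 fold change (x axis) of 24 channel genes (rows) in the early phase (left) and the late phase (right). Points are edgeR estimates and error bars standard errors, and colours give the adjusted p and the size. The early panel holds 4 genes higher and 3 lower by more than 2-fold and the late panel 2 higher. The early point of Cacng4 rests on 1 count at day 0.

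By the early and the late test together, the 24 named genes fell into 9 patterns. Kcnk3 rose in both phases and Cacng4 was placed beside it by values that are a description, while Cacna2d1, Clcn6 and Clcn7 fell in both. Cacna1g and Kcnn4 rose and then fell, and Cacna1a, Clcn5 and Kcnma1 fell and then rose. Clcn2 and Kcnn1 rose early without passing in the late phase, and 6 genes fell early without passing later (Cacna1c, Cacnb3, Cacng7, Kcnab2, Kcnd1 and Kcnk2). Clcn3 rose in the late phase alone, Kcnq1ot1 and Scn2a1 fell in the late phase alone, and Cacnb1, Cacnb2 and Clcn4 passed in neither. The places of Kcnk2, Kcnn1, Kcnma1, Kcnq1ot1, Cacna1a, Cacna1c and Scn2a1 also rest in part on differences that are a description, as given above. Some places were not stable over the alternatives. The early falls of Cacng7 and Kcnk2, the late fall of Cacna2d1 and the late rise of Clcn5 missed the threshold in some of them. The late value of Cacna1c and the early values of Kcnq1ot1 and Clcn4 passed it in some. A pass in a single phase was not tested as a difference between phases.

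Below 1 FPKM, 9 of the 14 tested channel genes were called in some comparison, where 51.4% of the 1495 tested genes with no daily mean of 1 FPKM were (23.9% of all tested genes). Apart from Cacnb4, each of the 9 had samples with fewer than 10 counts and passed the count filter through the samples in which it was higher, so that these calls are a description. Called higher in the early phase were Kcnh4, a voltage-gated potassium pore subunit (103 counts at day 4 against 4 at day 0, ratio 26.4, 95% counting interval 10.01 to 98.8), Kcnt1, a sodium-activated potassium channel (77 against 8, ratio 9.88, 4.77 to 23.7), and Scn8a, a sodium channel pore subunit (57 against 3, ratio 19.5, 6.34 to 97.3). All 3 day 0 counts of Scn8a lay in replicate 2, and without it the fitted log2 fold change went from 4.12 to 7.26, which is no bound since day 0 then held no count. Kcna4, another voltage-gated potassium pore subunit, was called lower in the early and higher in the late phase. Scn8a, Kcnt1 and Kcnip3, whose product is a calcium-binding partner of voltage-gated potassium channels, were called lower in the late phase. Over the whole process, Kcnh4, Kcnt1, the sodium channel gene Scn7a, the calcium channel beta subunit Cacnb4 and the potassium channel beta subunit Kcnab3 were called higher, and Kcnab1, another such beta subunit, lower. Opposite-strand transcripts cover 16% of the exon bases of Cacnb4 and 5.13% of those of Kcnab3, and the whole calls of Cacnb4 and Kcnab3 and the late calls of Kcnip3, Kcna4 and Kcnt1 were lost when single samples were left out. No mean of these genes passed 0.447 FPKM.

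Other genes that work with these channels were followed as 4 lists, described by count. Beside these counts, 9.77%, 4.24% and 10.3% of all tested genes were called higher in the early phase, the late phase and over the whole process, and 7.98%, 2.81% and 7.70% lower. Of 9 tested partner proteins (scaffolds, ubiquitin ligases and the like), 0 were called higher and 1 lower over the whole process, with a median log2 fold change of -0.50. That gene was Ank3, the ankyrin that anchors sodium channels, with means of 5.24 ± 0.369, 2.85 ± 0.209 and 1.44 ± 0.0404 FPKM and a fall of 1.77 on the log2 scale (SE 0.08, adjusted p = 5e-12). In the early phase 0 were called higher and 1 lower, and in the late phase 1 and 0. Anion channels outside the CLC family had 15 tested genes, of which 0 were called higher in any comparison and 3, 1 and 4 lower in the early phase, the late phase and the whole process (median of the last -0.10). Lrrc8c, a subunit of the volume-regulated anion channel, went from 15.5 ± 1.21 to 4.16 ± 0.311 and 3.96 ± 0.248 FPKM, a whole fall of 1.86 on the log2 scale (SE 0.08, adjusted p = 5.8e-12). Ano3 is listed here as a member of the anoctamin family, and whether it conducts anions was not tested. It went from 2.13 ± 0.184 to 0.363 ± 0.145 and 0.147 ± 0.0473 FPKM. It reached 1 FPKM at day 0 alone, so its whole log2 fold change of -3.77 (SE 0.23, adjusted p = 3.2e-10) is a description.

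Among 15 tested sodium and cation channels outside the symbol rule, 1 was called higher and 4 lower in the early phase, 3 and 0 in the late phase, and 0 and 1 over the whole process (median -0.25). The last was Cngb1, a cyclic nucleotide-gated channel subunit, which went from 1.06 ± 0.191 to 0.167 ± 0.0289 and 0.180 ± 0.04 FPKM. It reached 1 FPKM at day 0 alone, so its whole log2 fold change of -2.42 ± 0.21 (adjusted p = 3.2e-08) is a description. Of 17 tested pumps and cotransporters that set the ion gradients, 3 were called higher and 4 lower in the early phase, 3 and 0 in the late phase, and 3 and 1 over the whole process (median -0.12). Fxyd1 (phospholemman), a regulator of the sodium pump, went from 11.2 ± 1.22 to 27.6 ± 2.84 and 80.3 ± 2.47 FPKM (whole log2 fold change 2.95 ± 0.09, adjusted p = 8.3e-14), and Atp1b1, a beta subunit of that pump, from 51.5 ± 4.94 to 15.3 ± 3.33 and 21.2 ± 1.01 (-1.17 ± 0.10, adjusted p = 4.1e-08). Slc4a4, a sodium bicarbonate cotransporter, rose from 1.07 ± 0.122 to 2.70 ± 0.103 and 2.70 ± 0.340 FPKM (1.44 ± 0.11, adjusted p = 5.6e-09).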

How the data were processed

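RNA-seq of 3T3-L1 cells at day 0, 4 and 8 was used, with 3 samples per day grouped by their titles. The authors removed low-quality reads, mapped clean reads with HISAT/Bowtie2 (the labels also name CASAVA 1.4) and quantified with RSEM. The genome build and the use of strand are not given in the sources used here. They deposited RSEM expected counts per gene, not normalized, 29.8% of them not whole (tolerance 1e-06), and FPKM, which they scaled to gene length and depth. A gene absent from a sample's file was taken as 0.

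Expected counts were rounded and tested with edgeR 4.0.16 in R 4.3.3 (filterByExpr by day, TMM factors, a single quasi-likelihood model of all 9 samples with 1 coefficient per day). The SE is the log2 fold change divided by the square root of F. P-values were adjusted over 13154 genes, and a call needs an adjusted p under 0.05 and an absolute log2 fold change over 1. The tests were checked on simulated data. Replicates differed by more than sampling noise, with a chi-square per gene from 2.40 to 10.7. Depth ranged from 18216114 to 20452144 expected counts, and 3 counts per sample served as the floor. Shared sequence and overlaps were taken from GENCODE vM21, promoters and neighbours from RefSeq (GRCm38.p6).

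The channel genes and all gene lists were chosen with earlier results of these data known. One channel gene and one gene of another list are not reported here by name, though counts and sums include them. Named are every other member with a mean of 1 FPKM at some day, with all sample values for those called and for the highest of each role, up to 10 called members below 1 FPKM, up to 4 called genes of each other list with a mean of 1 FPKM or more, by the size of the whole change, and the highest gene of each marker list. Alternatives were RLE factors, library size alone, DESeq2 1.42.0, limma 3.58.1 on log2(FPKM + 1) and log2(FPKM + 0.1), no filter, at least 10 counts in every sample, a replicate block, and the omission of each sample in turn.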

Additional observations from a re-analysis of the deposited data

How the results depend on the processing

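No result changed sign past the threshold under any alternative run, and RLE factors and the replicate block left every call of a named gene as it was. With limma on log2(FPKM + 1), which shrinks differences of low genes, calls of channel genes were 2 higher and 2 lower in the early phase (7 and 4 in the main analysis), 0 and 0 in the late phase (3 and 3) and 3 higher over the whole process (8). Among the named genes at 1 FPKM or more, calls were lost there by Cacna1a (early -0.85), Kcnn1 (early 0.58), Cacng4 (early 0.57, late 0.52) and Kcnma1 (late 0.58). The 9 called genes below 1 FPKM lost every call there, in the early phase those of Kcnh4 (0.51), Kcnt1 (0.24), Scn8a (0.11) and Kcna4 (-0.34). With limma on log2(FPKM + 0.1), 0 were called lower in the late phase and 4 higher over the whole process. With at least 10 counts in every sample, which tested 27 channel genes, 3 were called higher in the early phase, 1 higher and 0 lower in the late phase and 3 higher over the whole process. Without a filter (110 tested), 8 were called higher and 5 lower in the early phase, 3 and 5 in the late phase and 11 and 4 over the whole process. Library size alone gave 6 higher and 5 lower over the whole process (8 and 3 in the main analysis), among them Kcnk2 (-1.02), and moved the median of all genes to -0.13 there, and limma on log2(FPKM + 0.1) moved it to -0.12.

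The 25 genes at 1 FPKM or more were also those with 1 FPKM in any single sample, and 24 of them, without Kcnk2, had it in every sample of some day. Omitting single samples gave 7 to 8 higher and 4 to 5 lower in the early phase, 2 to 3 and 2 to 3 in the late phase, and 6 to 9 higher and 3 to 5 lower over the whole process. The 5 came with 7 of the omissions, those of day 0 replicate 2 and day 8 replicate 1 being the exceptions, and the fits then tested up to 41 channel genes. Kcnip3, late, lost its call in 9 alternatives (-0.61 without day 4 replicate 2), Kcnab3, whole, in 7 (0.84 without day 0 replicate 2) and Cacnb4, whole, in 6 (0.89 without day 0 replicate 2). Kcna4, late, lost it without day 4 replicate 3 (1.04) or day 8 replicate 2 (1.02), and Kcnt1, late, without day 4 replicate 3 (-0.98). Of the 75 tests of these 25 genes, 55 passed an adjusted p of 0.05, and 7 of these missed it in some alternative.

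Replicate numbers in the titles did not pair the samples. Deviations of same-numbered samples correlated between -0.05 and 0.14, with 1 of 9 pairs over 0.1, and 4 of 9 samples correlated best with their own number. The fit with the replicate block called 7 higher and 4 lower, 3 and 3, and 8 and 3, as without it. Under the block the early fall of Cacng7, which was not a call, missed an adjusted p of 0.05. Of the 110 channel genes, 39 had enough counts to be tested in the main analysis.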
